A study of Mus musculus with 2 samples.

Results

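Regulators of the ALAS1 gene and of the turnover of its enzyme were followed in NIH3T3 cells, an established line of mouse embryonic fibroblasts. They were 9 genes, taken by name from the 22838 of the deposited table: the PGC-1 coactivators Ppargc1a, Ppargc1b and Pprc1, the transcription factors Nrf1 and Foxo1, the corepressor Ncor1, and the mitochondrial proteases Lonp1, Clpx and Clpp. They were picked by name for their known roles, with earlier results of these data known. The study held 1 library of untreated cells and 1 library of cells given 100 µM ALA for 16 h, with no other difference between the groups in the labels. The labels give the abbreviation alone; in the heme field it means δ-aminolevulinic acid, the product of ALAS1.

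ALAS1 makes δ-aminolevulinic acid from glycine and succinyl-CoA, the first and rate-limiting step of heme synthesis outside red cell precursors. In liver its gene is switched on by PGC-1α together with the nuclear respiratory factor NRF1 and FOXO1, while the heme-binding receptor REV-ERBα recruits NCOR1 and the deacetylase HDAC3 to repress genes that include that of PGC-1α. Heme also acts on the enzyme itself: LONP1 and the protease formed by CLPX and CLPP degrade ALAS1 in the mitochondrial matrix, and CLPX in addition helps load the cofactor of the enzyme. Heme can therefore reach ALAS1 through its transcription, its messenger RNA, its import and its degradation, of which messenger RNA levels show only a part.

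The promoter of Alas1 and that of Lonp1 are printed. The first belongs to the gene whose regulators are followed here, and whether these factors act in it was not tested. The second held the most matches among the members searched that had a matching start. Both come from RefSeq (GRCm38.p6) and run from 250 bases before to 50 bases after the annotated start, which coincided with the start of the deposited locus. Capitals mark matches, on either strand, to GCGCA and GCGC with 1 base of any kind between them (NRF1), TGACG (a half-site of the cAMP response element), GTAAACA (FOXO), AGGTCA (a nuclear receptor half-site) or CACGTG (an E-box); matches did not overlap in these windows.
Alas1 (chr9:106247905-106248204, minus strand): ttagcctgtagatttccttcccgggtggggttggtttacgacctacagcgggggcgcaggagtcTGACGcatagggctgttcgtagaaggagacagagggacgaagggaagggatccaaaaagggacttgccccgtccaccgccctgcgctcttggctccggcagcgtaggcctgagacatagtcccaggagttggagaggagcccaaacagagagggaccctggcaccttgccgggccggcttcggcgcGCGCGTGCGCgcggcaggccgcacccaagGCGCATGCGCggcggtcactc
Lonp1 (chr17:56626854-56627153, minus strand): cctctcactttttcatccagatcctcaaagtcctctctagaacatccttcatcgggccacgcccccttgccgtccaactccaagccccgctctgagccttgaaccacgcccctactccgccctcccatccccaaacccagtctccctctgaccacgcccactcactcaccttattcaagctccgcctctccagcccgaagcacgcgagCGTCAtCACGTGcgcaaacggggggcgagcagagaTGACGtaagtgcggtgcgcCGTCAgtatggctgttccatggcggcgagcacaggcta

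The Alas1 window held 2 matches to the NRF1 motif, at bases 251 and 280 of the window, and 1 TGACG. Another tabulated start of Alas1 lay 224 bases downstream. The same 2 matches lay upstream of it, at -224 and -195, and its window held no TGACG. Of 32851 promoter windows in the table, 4.60% held the NRF1 motif and 20.8% held TGACG. The Lonp1 window held 3 TGACG matches and 1 E-box, and E-boxes were present in 7.15% of windows. The window of Pprc1 held 1 AGGTCA, a motif found in 16.3% of windows. No match to any of these motifs was found at the deposited starts of Nrf1, Foxo1, Ncor1, Clpx or Clpp. The FOXO motif, in 3.65% of windows, was in none of the windows searched. No window of Ppargc1b was searched. For Ppargc1a the tabulated start lay 13804 bases from the start of the deposited locus, so its window is not printed. A match describes letters and shows no binding.

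Of the 9 regulators, 7 were measured, meaning a mean of at least 1 FPKM (fragments mapped per kilobase of transcript, scaled to the mapped total) over both libraries. None of the 7 was 1.5-fold apart between the libraries, where 13.1% of 10929 measured genes were. Ratios are ALA over untreated on the log2 scale with 1 FPKM added to each value, which shrinks those of low genes. Their log2 ratios ran from -0.35 for Nrf1 to 0.29 for Clpp, with 4 higher and 3 lower with ALA, or 5 and 2 with the libraries scaled to the same total. The median was 0.03, against -0.02 over all measured genes. Alas1 itself had 10.2 FPKM untreated and 4.52 FPKM with ALA, or -1.02 on the log2 scale. It was among the 2.01% of measured genes that were at least 2-fold lower, out of 3.50% that far apart in either direction. It was short of 2-fold with equal library totals, at -0.955, and with 5 FPKM added in place of 1, at -0.675. Genes within 2-fold of the mean FPKM of Alas1 had a middle 95% from -0.94 to 0.82, and 3.33% of them were at least as far from 0 as Alas1. Its approximate 95% counting interval, from -1.16 to -0.88, spanned the lower end of that range. Each measured regulator lay inside the middle 95% of genes at its own level. With 1 library per group no difference could be tested against the spread between cultures. In bulk RNA, fewer cells with a transcript and less transcript per cell cannot be told apart.

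**Figure D1:**
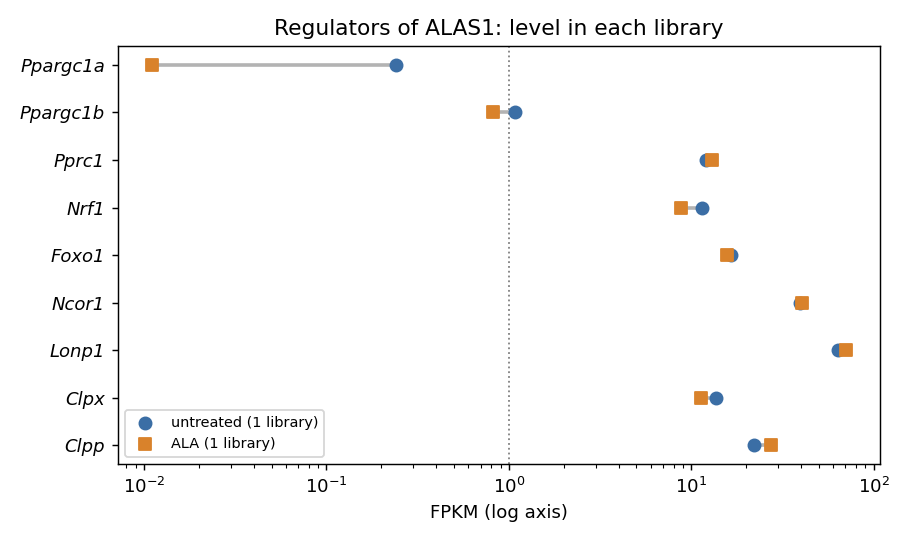
FPKM of each regulator on a log axis, with 1 point for the untreated library and 1 for the ALA library, and a dotted line at 1 FPKM. The symbols nearly coincide for Foxo1 and Ncor1, while those of Ppargc1a lie apart at 0.241 and 0.0111 FPKM, far below the others.

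The libraries were similar in the number of genes that reached 1 FPKM, 10894 untreated and 10888 with ALA. They differed in estimated depth, with 22100000 reads untreated and 29900000 with ALA, and in summed FPKM, with 540963 and 512324. All 8 fibroblast markers were measured, between 19.7 and 2367 FPKM untreated and between 21.0 and 1896 FPKM with ALA. Of 5 hepatocyte markers none was measured, and Alb, Apoa1, Ttr and Cyp3a11 were listed at 0 in both. Of 5 muscle markers Myod1, Myog and Ckm were listed at 0 and 1 was measured, and the list summed to 2.22 FPKM untreated and 1.88 FPKM with ALA. Of 5 adipocyte markers Adipoq, Plin1, Fabp4 and Cidec were listed at 0, while the other one had 51.3 and 52.3 FPKM. Of 4 erythroid markers Gata1 and Klf1 were listed at 0 and 1 was measured, and the list summed to 2.50 and 1.83 FPKM. Of 4 epithelial markers 1 was measured, and the list summed to 1.23 and 0.958 FPKM. The 5 macrophage and blood markers summed to 29.7 FPKM untreated and 16.5 FPKM with ALA, and the part of such cells in the results was not tested.

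Pprc1 carried most of the PGC-1 messenger RNA of these cells. The 3 coactivator genes summed to 13.4 FPKM untreated and 13.8 FPKM with ALA, of which Pprc1 made up 90.1% and 94.0%. Pprc1, which encodes the serum-responsive PGC-1-related coactivator, had 12.0 FPKM untreated and 13.0 FPKM with ALA, or about 1395 and 2033 reads. The ratio was 0.10 on the log2 scale, and counting error alone gave an approximate 95% interval of 0.01 to 0.19. Counting intervals here rest on the estimated depth and cover counting error only. Of genes within 2-fold of its level, 75.6% were at least as far from 0, so Pprc1 was nearly level between the libraries.

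Ppargc1b, which encodes PGC-1β, a coactivator of mitochondrial and lipid genes, was near the limit of the measured range. It had 1.08 FPKM untreated and 0.815 FPKM with ALA, from about 87 and 89 reads. Its log2 ratio was -0.20, and its counting interval, from -0.40 to 0.01, included no difference. Its share of the summed coactivator FPKM was 8.08% untreated and 5.91% with ALA.

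Ppargc1a, which encodes PGC-1α, the fasting- and cold-induced coactivator, was close to the limit of detection in both libraries. It had 0.241 FPKM untreated and 0.0111 FPKM with ALA, which corresponded to about 34 and 2 reads on its longest transcript of 6464 bp. The untreated value was 21.8-fold the ALA value, with an exact conditional counting interval of 5.90 to 198. On the scale with 1 FPKM added the log2 ratio was -0.30. Differences of this size were common at such low levels. Among 1071 genes within 2-fold of its mean FPKM, 19.1% were at least 8-fold lower with ALA, 31.9% were at least 8-fold higher, and 13.9% were lower by at least as large a fold as Ppargc1a. Of the 149 genes in the last group, 115 were listed at 0 with ALA. Among 344 low genes with a summed read number within 1.5 times that of Ppargc1a, 11.9% were at least as far lower. Counting error alone therefore understated the spread of low values, and the Ppargc1a difference was not distinguishable from that spread.

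**Figure D2:**
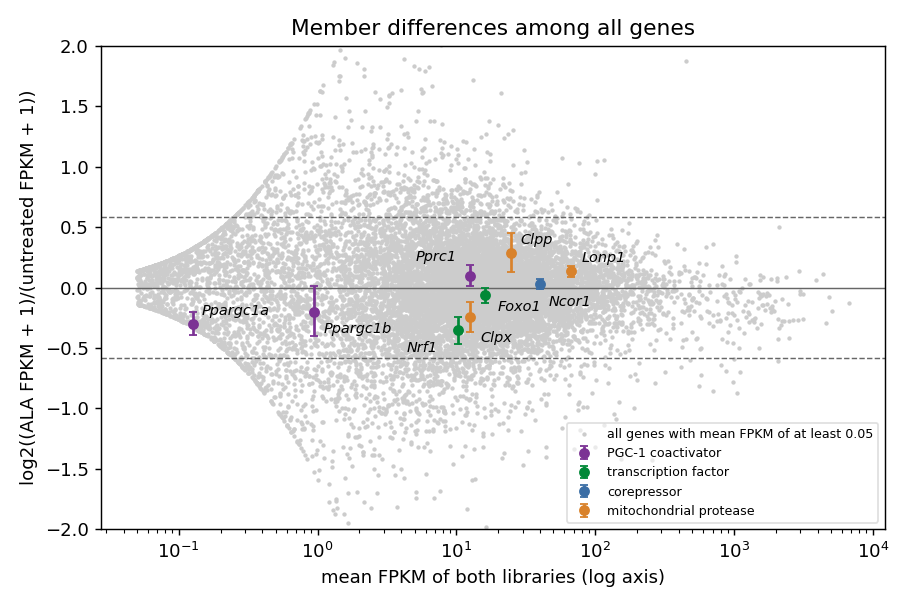
Log2 ratio of ALA over untreated FPKM, with 1 added to each, against the mean FPKM on a log axis. Coloured points are the regulators by role with approximate 95% counting intervals, grey points are the 13371 genes that average 0.05 FPKM or more (36 lie beyond the axis), and dashed lines mark 1.5-fold. The measured regulators sit between the dashed lines and inside the cloud, and Ppargc1a sits at its lower edge, where the added 1 narrows the range.

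Nrf1 had the lowest ratio of the measured regulators. It encodes nuclear respiratory factor 1, an activator of nuclear genes for mitochondrial proteins, and is not Nfe2l1, a different gene whose product is also abbreviated NRF1. Nrf1 had 11.5 FPKM untreated and 8.81 FPKM with ALA, or about 1031 and 1065 reads. The log2 ratio was -0.35, and its counting interval ran from -0.47 to -0.24. The difference exceeded counting error, but 31.3% of 4505 genes of like level were at least as far from 0. Nfe2l1 had 91.2 and 78.7 FPKM, or -0.21 on the log2 scale.

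Foxo1 and Ncor1 were close to level between the libraries. Foxo1, the forkhead factor that insulin signalling keeps out of the nucleus, had 16.4 FPKM untreated and 15.6 FPKM with ALA, or -0.06 on the log2 scale and 0.01 after scaling to the same library total. Ncor1, the corepressor of nuclear receptors, had 39.5 and 40.3 FPKM, or 0.03 on the log2 scale (counting interval -0.01 to 0.07). Scaled to the same library total it was at 0.106, outside that interval, which does not cover scaling. The ratio of Ncor1 to Nrf1 within a library, which does not depend on scaling between libraries, was 3.42 untreated and 4.57 with ALA. The ratio of Foxo1 to Nrf1 was 1.42 and 1.78, so each was higher relative to Nrf1 with ALA.

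The protease genes did not differ in a common direction. Lonp1, which encodes the matrix protease that removes oxidized and misfolded proteins, was the most abundant regulator in both libraries, with 63.6 FPKM untreated and 70.1 FPKM with ALA. Its log2 ratio was 0.14, and its counting interval ran from 0.09 to 0.18. With equal library totals the ratio of Lonp1 was 0.216, outside that interval. Clpp, which encodes the proteolytic chamber of the CLPXP protease, had 22.1 and 27.2 FPKM, or 0.29 on the log2 scale (counting interval 0.13 to 0.45). Clpx, which encodes the unfoldase that feeds that chamber, had 13.6 and 11.3 FPKM, or -0.24 on the log2 scale (counting interval -0.37 to -0.12). The subunits of 1 protease thus differed in opposite directions.

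Within each library Clpp exceeded Clpx, by a ratio of 1.63 untreated and 2.40 with ALA. The log2 change of this ratio was 0.56, with a counting interval of 0.35 to 0.77. Lonp1 over Clpx was 4.68 and 6.19, a log2 change of 0.40 with an interval of 0.26 to 0.54. Clpp over Lonp1 was 0.348 and 0.388, with an interval of the log2 change from -0.01 to 0.33. The distance between Clpx and the other proteases was beyond counting error, and that between Clpp and Lonp1 was not. Of genes at the level of Clpx 45.5% were at least as far from 0 as Clpx, and for Clpp the share was 32.5%, so neither stood apart from its peers.

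**Figure D3:**
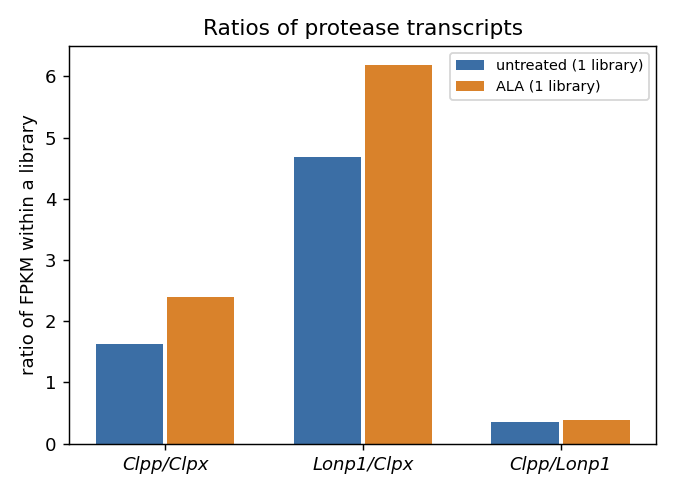
Ratio of FPKM between pairs of protease genes within the untreated and the ALA library, with 1 library per bar. Clpp over Clpx went from 1.63 to 2.40 and Lonp1 over Clpx from 4.68 to 6.19, while Clpp over Lonp1 was 0.348 and 0.388.

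The deposited loci of the regulators lie on build mm10, with starts counted from 1. Ppargc1a spans 51454249 to 51553921 on chromosome 5, Ppargc1b 61298136 to 61400431 on chromosome 18 and Pprc1 46056539 to 46072909 on chromosome 19. Nrf1 spans 30047988 to 30153458 on chromosome 6, Foxo1 52268337 to 52350109 on chromosome 3 and Ncor1 62281473 to 62457332 on chromosome 11. Lonp1 and Clpp lie near each other on chromosome 17, at 56614298 to 56626903 and 56990264 to 56996371, and Clpx at 65294260 to 65330658 on chromosome 9. Exon overlap, here and below, was taken on the longest transcript of each gene in the GENCODE vM21 models, and shorter transcripts were not checked. These models need not be those behind the deposited FPKM. No such exon base of Ppargc1a, Ppargc1b, Pprc1, Nrf1, Foxo1, Lonp1, Clpx or Clpp falls in another gene of the table. For Ncor1 0.0111% of these exon bases fall in another gene, Ttc19. The deposited locus of Ncor1 reaches beyond its GENCODE model, which begins at 62316426.

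The order of levels, per length of transcript, was nearly the same in both libraries. It ran from Lonp1 through Ncor1, Clpp and Foxo1 to Nrf1, Ppargc1b and Ppargc1a, with Clpx above Pprc1 untreated and Pprc1 above Clpx with ALA. The counting intervals of neighbours in this order overlapped only for Pprc1 and Nrf1 in the untreated library, at 12.0 and 11.5 FPKM. Lonp1 exceeded 94.3% of all genes in the table untreated, Nrf1 73.3% and Ppargc1b 52.6%. In the same models little sequence of the regulators was shared: the share of 41-base stretches of the longest transcript that also occur in other annotated genes was 0% for Ppargc1b, Pprc1, Nrf1, Lonp1 and Clpp, and highest for Foxo1 at 7.29%. For Alas1 it was 11.5%.

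Genes that work beside each regulator were described from 9 lists. Counts at 1.5-fold are read beside the 5.90% of measured genes that were higher and the 7.16% that were lower with ALA by that much. Of the genes at 1.5-fold 45.2% were higher, and 57.0% with the libraries scaled to the same total, so directions of values near 0 depend on the scaling. Over all measured genes 47.8% were higher and 52.2% lower with ALA, and with equal totals 56.9% were higher and 43.1% lower. Among partner receptors and factors of PGC-1, 8 of 13 measured genes were higher and 5 lower, none at 1.5-fold, with a median log2 ratio of 0.14; with equal totals 1 reached it, and 2 with a pseudocount of 0.1. The muscle and neural factor Mef2c was at 0.54 and the thyroid hormone receptors Thrb and Thra at 0.51 and -0.43, and 10.7% of the exon sequence of Thra lies in other genes, mostly Nr1d1. Ppard, a fatty acid-sensing receptor, was at 0.32. Among modifiers and cofactors of PGC-1, 10 of 21 were higher and 11 lower, with a median of -0.04. Prkab2, a regulatory subunit of the energy sensor AMPK, was the only one at 1.5-fold, with 6.95 FPKM untreated and 4.27 FPKM with ALA. No gene of the list was at 1.5-fold with equal totals, with median centring or with a pseudocount of 5, and 2 were with 0.1. All 4 measured AMPK subunits of the list were lower, from -0.25 for Prkaa1 to -0.59 for Prkab2, a grouping made after the values were seen, and Prkag1 among them shares 35.2% of its sequence with other genes. Rnf34, a ubiquitin ligase for PGC-1α, was at -0.58 with 13.6% shared sequence, the CREB coactivator Crtc2 at -0.52 and the steroid receptor coactivator Ncoa2 at 0.40.

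The list of mitochondrial DNA replication and transcription held known NRF1 targets such as Tfam, and also Cycs, which encodes the electron carrier cytochrome c. It had the lowest median of these lists, -0.43. Of its 15 genes 9 were lower. Cycs was among these, but 29.8% of its 41-base stretches are shared with other genes, so its direction is uncertain. Of the 15 genes, 4 were lower by at least 1.5-fold. These 4 were Mterf1a at -1.41, Mterf1b at -0.65, the ribosomal RNA methyltransferase gene Tfb1m at -0.64 and the mitochondrial termination factor gene Mterf3, with 12.8% shared sequence, at -0.59. Tfam, which packages mitochondrial DNA, was higher at 0.33, from 11.2 to 14.4 FPKM. Tfb1m went from 8.29 to 4.96 FPKM. Mterf1a and Mterf1b share 34.5% and 65.4% of their 41-base stretches with other genes, mostly with each other, so their values are uncertain. The gene at the median has 59.9% of its exon sequence in other genes, and a further lower gene shares 41.0% of its stretches. The median is therefore uncertain too. The count at 1.5-fold was 2 with equal totals, 3 with median centring and 0 with a pseudocount of 5. With genes under a mean of 5 FPKM left out, the count was 2 and the median of the list was 0.015, so its low value rested on low genes.

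The FOXO family and its insulin and AKT control were lower for 14 of 17 genes, and their median was -0.12, beside the 52.2% of all measured genes that were lower. With equal totals 10 of the 17 were lower, beside 43.1% of all. The insulin receptor substrate Irs2 was the only one at 1.5-fold, with 9.36 FPKM untreated and 5.04 FPKM with ALA, or -0.78 on the log2 scale, and none was with a pseudocount of 5. The kinase Pdpk1 was at -0.49 and the PI3-kinase subunits Pik3r2 and Pik3ca at -0.45 and -0.28. Of FOXO target genes 6 of 11 were lower and 5 higher, the latter up to 0.32, with a median of -0.14. The thioredoxin inhibitor Txnip was at -0.62, the CDK inhibitor Cdkn1b at -0.43, the cyclin Ccng2 at -0.42 and the ubiquitin ligase subunit Fbxo32 at -0.33. Txnip was the only one at 1.5-fold, and none was with equal totals. Txnip shares 19.0% of its sequence, most of it with Gm15441. Foxo1 itself was at -0.06. The named genes are those farthest from 0 in each list, so they cannot serve as a contrast to it.

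The partners of NCOR1 were, like Ncor1, close to level. In the REV-ERB and NCoR-HDAC3 list 4 of 7 genes were higher and 3 lower, with a median of 0.04 and none at 1.5-fold, and with equal totals all 7 were higher. Nr1d2, which encodes REV-ERBβ, was at 0.32, the complex subunits Tbl1xr1 and Tbl1x both at 0.20, and Hdac3 at -0.06.

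Other mitochondrial proteases and prohibitins had 14 of 18 genes higher, beside 47.8% of all measured genes, and the highest median of these lists, 0.19. With equal totals 15 were higher, beside 56.9% of all. Among the higher genes that are not named here, up to 50.6% of exon sequence lies in other genes. Up to 48.4% of their 41-base stretches are shared, so the directions of such genes are uncertain. Pmpcb, a subunit of the peptidase that removes import presequences, was the only one at 1.5-fold, with 27.8 FPKM untreated and 47.9 FPKM with ALA, or 0.77 on the log2 scale. Its partner subunit Pmpca was at 0.45 but 27.9% of its exon sequence lies in other genes, mostly Inpp5e. The inner membrane peptidase Immp2l was at 0.49 and Lactb at -0.57. Lonp1 and Clpp were on the higher side with this list and Clpx on the lower. Matrix chaperones and stress factors had 5 of 11 higher, 8 of 11 with equal totals, and a median of -0.00, with the stress factor Ddit3 at -0.71, the nucleotide exchange factor Grpel2 at -0.51, and the chaperones Trap1 and Hspe1 at 0.38 and 0.32. Hspe1 shares 10.4% of its sequence.

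Among xenobiotic receptors and general factors of Alas1, 4 of 7 were measured and 3 of these were lower. The drug-sensing receptors Nr1i2 and Nr1i3, which induce Alas1 in liver, were listed at 0 in both libraries. Egr1, a serum-responsive factor, had 25.7 FPKM untreated and 12.3 FPKM with ALA, the lowest ratio of this list. Its corepressor Nab1 was at 0.19 and Sp1 at -0.17. Alas2, which replaces Alas1 in red cell precursors, was at 0 in each library.

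**Figure D4:**
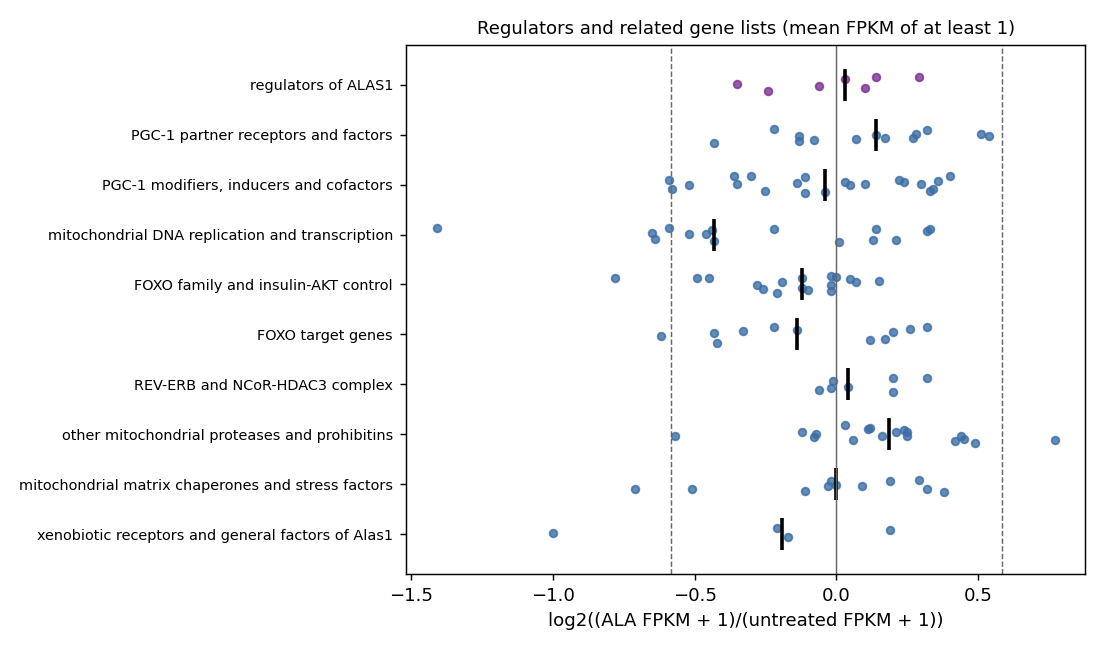
Log2 ratios (ALA over untreated, with 1 FPKM added) of the measured members of each list, 1 point per gene, with the median as a black bar and dashed lines at 1.5-fold. The regulators lie from -0.35 to 0.29, the list of mitochondrial DNA genes with Cycs has the lowest median at -0.43, and other mitochondrial proteases the highest at 0.19.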

How the data were processed

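Messenger RNA was read as 41-bp single-end reads from TruSeq libraries, per the labels' protocols. The authors deposited FPKM per gene, per the file headers. FastQC 0.11.5, TopHat2 2.1.1, Cufflinks 2.2.1 and build mm10 are listed in the submitters' processing notes; for options, annotation, strand and scaling, the sources used here give nothing. The deposited interval bounds were equal in 100% of rows and were not used. No count model was run, since FPKM are not counts.

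The spacing of low FPKM values gave an estimate of the depth. The ratio of depths was 1.35 from 461 genes. At the best scaling 41.6% of their ratios lay near ratios of small whole numbers, beside a median of 23.6% over all scalings. Depths of 24600000 and 33300000 reads resulted when 200 bases were taken off transcript lengths. Approximate reads were FPKM times the longest GENCODE vM21 transcript times depth. Python 3.11.15 with numpy, pandas and scipy was used, and the log2 ratio was tested on simulated data. Alternatives were pseudocounts of 0.1 and 5, equal library totals, median centring, a mean of at least 5 FPKM, and no filter.

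The regulators and lists were chosen with earlier results of these data known. Named were all 9 regulators, Alas1, Alas2 and up to 4 measured genes per list with the largest absolute log2 ratio. Outside this rule, Prkaa1, Prkag1, Tfam, Cycs, Nr1i2 and Nr1i3 were named after their values were seen. With 2 libraries no gene of like pattern can be defined, so none is named. Some marker genes are not reported here.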

Additional observations from a re-analysis of the deposited data

How the results depend on the processing

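None of the measured regulators was 1.5-fold apart under any of the 6 alternatives. A pseudocount or a filter cannot change the direction of a gene, so only equal library totals and median centring could. Under both, directions of Ppargc1a, Ppargc1b, Pprc1, Nrf1, Ncor1, Lonp1, Clpx and Clpp stayed the same. Foxo1 changed sign with equal library totals, at 0.010. The log2 ratio of Ppargc1a ran from -1.62 with a pseudocount of 0.1 to -0.07 with 5. On its shorter transcripts it had between 13 and 16 reads untreated and 1 with ALA. The median of the regulators became -0.064 with no filter, which adds Ppargc1a and Ppargc1b. Of all measured genes 383 were 2-fold apart, but 691 with a pseudocount of 0.1, 73 with 5 and 171 among genes averaging 5 FPKM or more. At 1.5-fold the count of 1427 became 493 with a pseudocount of 5 and 796 among genes averaging 5 FPKM or more. Equal library totals moved the median of the measured genes from -0.019 to 0.054. Over the 9 lists 10 genes were 1.5-fold apart, 16 with a pseudocount of 0.1 and 4 with 5. Among other values, counts were judged by 1.5 times and ratios by a counting half-interval. That half-interval was the gene's own for the regulators. For Alas1 and the list medians it was the median over the measured regulators. By this rule 151 values stayed within the limit and 29 moved beyond it. No paired analysis was possible because each group was 1 library. Depth limits Ppargc1a most, and 1 library per group limits every comparison.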
